A study of Mus musculus with 9 samples.

Results

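The cytosolic ribosomal protein genes encode the protein part of the ribosomes that translate nuclear mRNAs. They were taken as the protein-coding genes whose GENCODE M21 symbol is Rpl, Rplp, Rps or Rpsa with the numbering of the ribosomal proteins, which leaves out kinases named Rps6k, mitochondrial ribosomal proteins and pseudogenes. This gave 82 of the 55536 genes in the count files: 48 of the large subunit with its paralogs, 3 of the P stalk and 31 of the small subunit. RNA was sequenced in bulk from the quadriceps of C57BL/6 mice after volumetric muscle loss, an injury made by removing a piece of the muscle. There were 4 libraries labelled wild type (WT) and 5 labelled Il17ra-/-, a knockout of a receptor subunit for interleukin-17 cytokines. All 9 were labelled with an age of 6 weeks, the material saline and a harvest 1 week after surgery. The extraction protocol instead names the polymer PCL and a collection 6 weeks after surgery, and which version applies was not settled by the sources used here. The design text speaks of 3 animals per genotype. No label ties a library to an animal, a litter or a batch, so that the p-values measure the spread between these samples, which may in part be technical. The labels do not say how the allele was made.

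Each ribosome carries 1 copy of most of these proteins and several of the stalk proteins, so that cells make them in matched amounts. Their mRNAs begin with a run of pyrimidines, the 5′ terminal oligopyrimidine (TOP) motif, through which the kinase complex mTORC1 and the RNA-binding protein LARP1 control how strongly they are translated. A few members have paralogs with narrow expression. Rpl3l, the paralog of Rpl3, is restricted to striated muscle, and Rpl10l and Rpl39l are known from the male germ line.

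The start regions below show how the longest pyrimidine run lies in 3 members and in Rpl3l, the member that stood apart in the libraries. They come from RefSeq on GRCm38.p6, which held promoters for 62 of the 82 members. Each runs from 100 bases before the annotated start to 20 after it, 5′ to 3′ on the gene's strand. Capitals mark the longest unbroken run of C and T. Rps27 and Rps28 are small-subunit genes with the smallest p among the members with lower mean levels in the libraries labelled Il17ra-/-, and Rpl4 is the large-subunit gene whose fold change was nearest to 0.
Rps27, chr3:90213629-90213748, minus strand: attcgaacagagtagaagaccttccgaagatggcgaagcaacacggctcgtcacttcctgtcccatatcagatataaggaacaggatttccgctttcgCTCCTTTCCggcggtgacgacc
Rps28, chr17:33824543-33824662, minus strand: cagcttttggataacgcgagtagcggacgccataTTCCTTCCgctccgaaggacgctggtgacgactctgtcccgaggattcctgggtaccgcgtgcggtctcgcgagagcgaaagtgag
Rpl4, chr9:64173287-64173406, plus strand: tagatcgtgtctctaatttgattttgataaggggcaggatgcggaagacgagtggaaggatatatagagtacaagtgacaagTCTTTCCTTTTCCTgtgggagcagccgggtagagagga
Rpl3l, chr17:24727726-24727845, plus strand: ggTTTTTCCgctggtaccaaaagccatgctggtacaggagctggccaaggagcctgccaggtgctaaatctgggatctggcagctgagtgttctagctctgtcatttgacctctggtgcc

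In Rps27 the longest pyrimidine run began at position −2 from the start, and in Rpl4 a run of 14 began at −18. In Rps28 it began at −66 and in the Rpl3l region shown at −98. Another annotated start of Rpl3l, at chr17:24732685, had a run of 8 that began at −65. Over the 62 members the longest run had a median of 10 bases, against 7 over all 27025 genes with a promoter. A run of at least 10 bases was present in 33 of the 62 members (53.2%) and in 24.6% of all genes. Motifs were searched in the 300 bases from 250 before to 50 after the start, on both strands. The ETS core CCGGAAG was found in 40.3% of members and in 9.93% of all genes. The GC box GGGCGG was in 61.3% against 38.2%, and the YY1 core AAGATGGC in 9.68% against 3.19%. The TATA box TATAAA was in 11.3% of members against 15.7%. The E-box CANNTG, the only one of the motifs present in Rpl3l, was in 51.6% against 74.99%. The pyrimidine letters CTCTTTC, at any place in the window, were in 27.4% against 9.28%. These shares describe letters in a window and not binding sites. They do not count TOP motifs either, which lie at the 5′ end of the mRNA, since a run anywhere in its window was taken.

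The members were scattered over the genome, on 19 chromosomes with 4 on X (Rpl10, Rpl36a, Rpl39 and Rps4x). Their coding sequences were short, from 138 nucleotides in Rpl41 to 1257 in Rpl4, with a median of 462 against 1413 over all tested genes. Levels between genes were compared per length, as counts over the exon length scaled to the same total in each library (TPM). On this scale Rplp1, an acidic protein of the stalk that recruits translation factors, was highest at 4492 ± 714 TPM (SD over the 9 libraries). Rps15, a protein of the small-subunit head, followed at 2631 ± 444 TPM, and Rplp0, the base of the stalk, at 1862 ± 174 TPM. Rpl4 stood at 1725 ± 142 TPM and Rpl8 at 1701 ± 272 TPM, both proteins of the large-subunit core. The spreads of Rplp0, Rpl4 and Rpl8 overlapped, and those of Rplp1 and Rps15 did not.

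At the other end stood Rps10 (12.3 ± 3.57 TPM), Rpl39l (29.6 ± 9.04 TPM), Rpl3l (42.4 ± 18.6 TPM), Rpl13a (45.99 ± 5.65 TPM) and Rpl24 (48.0 ± 20.2 TPM). Rps10, Rpl13a and Rpl24 encode core proteins that every ribosome carries. In GENCODE M21 each has exons shared on the same strand with another gene model: 475 bases with RPS10-NUDT3, 621 with Gm45713 and 484 with Gm28037. Their coding lengths are 507, 609 and 471 nucleotides. The authors' counting left out reads that fall on 2 genes, and the 3 overlapping models held 0 counts in every library. Low values of these 3 members are therefore uncertain as levels. Rpl10l held 0 counts in all 9 libraries, where 3 counts correspond to 0.0646 to 0.0959 CPM (counts scaled by library size), and was the 1 member not tested.

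Total counts ran from 31.3 to 46.4 M (mega), with 17256 to 20945 genes having a count, the fewest in WT replicate 2. On the first principal component (34.3% of the variance) WT replicate 2 stood at 139 and the other 8 libraries between −30.7 and 0.264. Il17ra-/- replicate 1 stood apart on the second (17.4%). The targeted gene itself, Il17ra, had a higher level under the Il17ra-/- label, at 208 ± 43.2 CPM (n = 5) against 96.8 ± 19.7 CPM (n = 4; log2 fold change 1.11, SE 0.17, edgeR adjusted p = 0.00208). This goes against the label as far as a loss of the whole transcript is meant. All directions below refer to the labels as given, as Il17ra-/- minus WT.

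Ribosomal protein mRNA took up a similar share of each library except WT replicate 2. The members together held 2.12%, 3.39%, 2.08% and 2.14% of the counts in WT replicates 1 to 4. In the libraries labelled Il17ra-/- they held 1.91%, 2.33%, 1.89%, 2.43% and 2.08%. WT replicate 2 was the highest of the 9, and without it the WT libraries lay within the range of the others. The means were 2.43 ± 0.639% (n = 4) and 2.13 ± 0.245% (n = 5), and 2.11 ± 0.027% (n = 3) in WT without replicate 2. In bulk samples fewer cells of a type and less RNA per cell cannot be told apart.

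**Figure D1:**
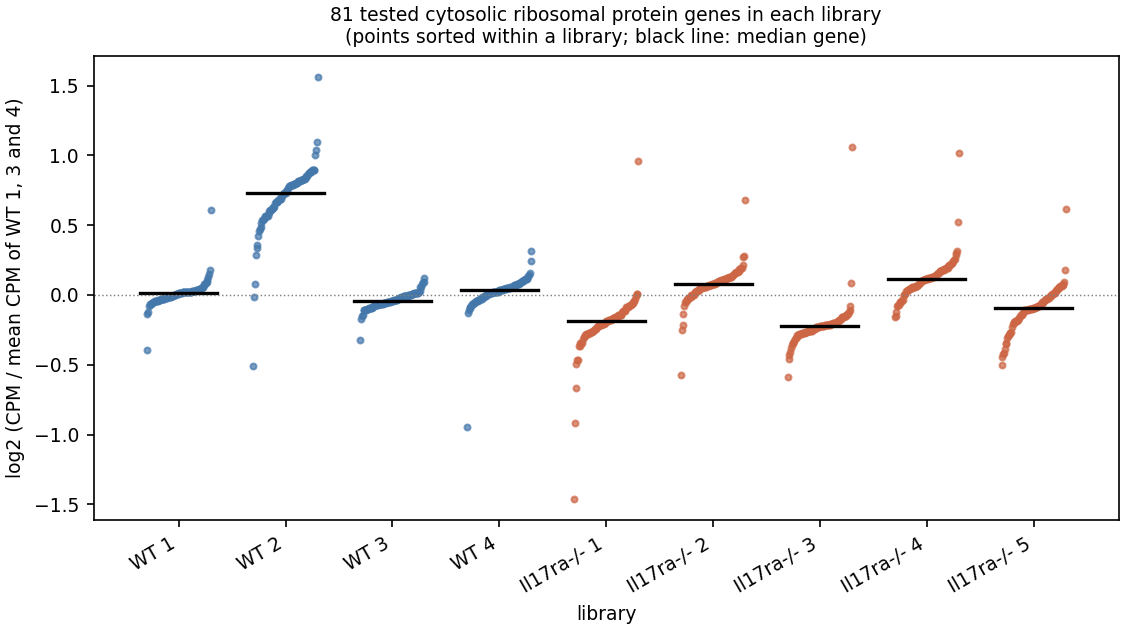
Level of each of the 81 tested ribosomal protein genes in each library, as log2 of its CPM over the mean CPM of WT replicates 1, 3 and 4. Each point is a gene, the black line is the median gene, and colours mark the labelled genotype. The median gene of WT replicate 2 lies at 0.73 and those of the other 8 libraries lie between −0.22 and 0.11.

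The plot of members by library shows that WT replicate 2 was raised across nearly the whole family. It had the highest CPM of all 9 libraries in 77 of the 81 tested members, the exceptions being Rpl39l, Rpl3l, Rpl4 and Rpl7l1. The share of all tested genes that were highest in this library is not given here. Its CPM over the mean of the other 3 WT libraries had a median of 1.66 and ran from 0.702 in Rpl3l to 2.96 in Rpl24. The lowest library was Il17ra-/- replicate 3 in 44 members and Il17ra-/- replicate 1 in 28. Il17ra-/- replicates 2 and 4 stood above the WT reference, with median ratios of 1.06 and 1.08. The libraries labelled Il17ra-/- thus did not move as a block: their median ratios ran from 0.857 to 1.08.

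The comparison of genotypes asks whether the family differed between libraries with these labels. No member passed the test: 0 of 81 had an edgeR adjusted p under 0.05, where 3.06% of all 16039 tested genes did (1.35% higher and 1.71% lower). At an unadjusted p under 0.05, 12 of the 81 members passed, 11 of them with lower levels, against 16.4% of all genes (8.27% lower). DESeq2 and limma-voom each called 1 member, Rpl3l, as higher, and none as lower. The direction of the fitted changes was nearly uniform, with negative log2 fold changes in 80 of 81 members, against 50.3% of all tested genes; with scaling by library totals only, which moves the median of all genes to 0.06, it was 79. The median log2 fold change was −0.27 over the members and −0.003 over all tested genes, and the central portion of the members, between the quartiles, ran from −0.33 to −0.22. The median standard error of a member was 0.17 on the same scale.

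Without WT replicate 2 this common shift was mostly gone. The members' median was then −0.06, with 65 negative and 16 positive values, against 8317 negative values among all 16634 genes tested without that library. At an unadjusted p under 0.05 there were 3 members (15.8% of all genes), and 0 passed after adjustment (3.41% of all genes). Without WT replicate 2 and Il17ra-/- replicate 1 together, an alternative chosen after seeing the data, the median was −0.03 and 54 members were negative. Not a single member had all 5 libraries labelled Il17ra-/- below all 4 labelled WT, while 4.56% of all tested genes did. Without WT replicate 2 there was still no such member, against 6.36% of all genes. In the other direction Rpl3l alone had groups that did not overlap (4.63% of all genes).

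**Figure D2:**
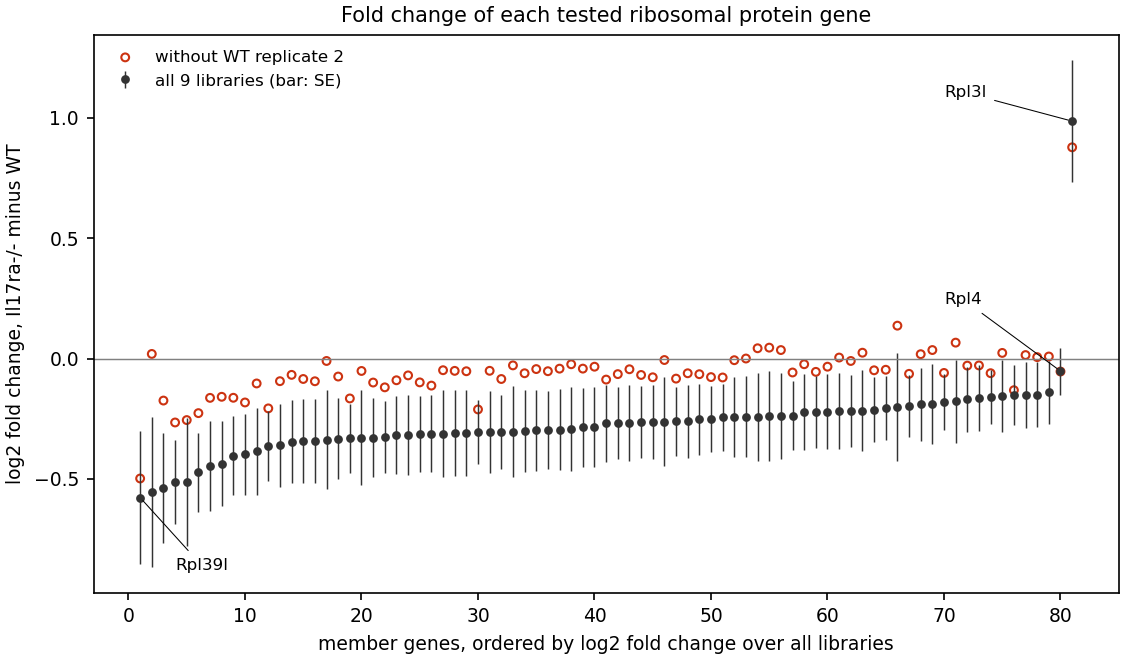
Log2 fold change (Il17ra-/- minus WT) of each tested ribosomal protein gene, ordered by its value over all 9 libraries. Filled points with SE bars use all libraries and open circles leave out WT replicate 2. With all libraries 80 of 81 genes lie below 0, and the open circles of most genes move toward 0, while Rpl3l stays near its value.

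Among the small-subunit genes all 31 had negative values, with a median of −0.30 and 0 called. Rps28, a small protein at the mRNA exit region, stood at 73.4, 129, 73.3 and 74.7 CPM in WT replicates 1 to 4. It stood at 53.3, 75.9, 56.7, 66.1 and 54.3 CPM in the libraries labelled Il17ra-/-. Il17ra-/- replicate 2 lay above 3 of the WT libraries, so the groups overlapped (log2 fold change −0.51, SE 0.18, adjusted p = 0.156). Without WT replicate 2 the value was −0.27 (adjusted p = 0.284). Rps27, a zinc-finger protein of the small subunit, stood at 284, 513, 298 and 303 CPM in WT. Its values were 229, 284, 230, 271 and 244 CPM in the libraries labelled Il17ra-/- (−0.47, SE 0.17, adjusted p = 0.163), and the highest of them barely passed the lowest WT library. It stood at −0.23 without WT replicate 2 (adjusted p = 0.262).

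Rps29, a small zinc-binding protein, had the highest level of WT replicate 2 among the small-subunit genes named here, relative to the other WT libraries. It stood at 122, 269, 122 and 134 CPM in WT and at 79.5, 124, 109, 141 and 105 CPM in the libraries labelled Il17ra-/- (log2 fold change −0.54, adjusted p = 0.258). The groups overlapped, with Il17ra-/- replicate 4 above 3 WT libraries. Rps15 had WT values of 429, 772, 435 and 441 CPM and values from 376 to 458 CPM in the other group. Rpsa, which also serves as a laminin-binding protein, had 502, 841, 461 and 517 CPM in WT and 412 to 557 CPM in the libraries labelled Il17ra-/- (−0.24, adjusted p = 0.506, and −0.01 without WT replicate 2).

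The 47 tested large-subunit genes had a median of −0.26, with 46 negative. The most negative value was that of Rpl39l, at 7.59, 9.64, 6.32 and 9.81 CPM in WT and 2.88, 5.32, 5.26, 8.60 and 5.90 CPM in the libraries labelled Il17ra-/- (−0.58, SE 0.28, adjusted p = 0.317). It changed little without WT replicate 2, at −0.50, and its groups overlapped. Rpl24, whose counts are limited by the shared exons named above, stood at 12.9, 33.6, 10.9 and 10.4 CPM in WT and 8.45 to 13.8 CPM in the other group. Its fold change of −0.55 turned to 0.02 without WT replicate 2. Rpl31, at the exit of the peptide tunnel, had a value of −0.45 (adjusted p = 0.248) and Rpl41, the shortest member, one of −0.44 (adjusted p = 0.229). Both were at −0.16 without WT replicate 2.

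Rpl4, which lines the peptide tunnel, had the fold change nearest to 0. It stood at 942, 957, 946 and 1018 CPM in WT and 901, 1001, 843, 1015 and 899 CPM in the libraries labelled Il17ra-/-. WT replicate 2 did not stand out in it, and the log2 fold change was −0.05 (SE 0.10, adjusted p = 0.838), or 0.01 when libraries were scaled by their totals only. In the P stalk, the 3 proteins that bind elongation factors had a median of −0.24 and none called. Rplp0 stood at 838, 1203, 840 and 798 CPM in WT and 689 to 900 CPM in the other group. Rplp1 stood at 622, 1024, 582 and 565 CPM in WT and 487 to 624 CPM in the libraries labelled Il17ra-/-. Rplp2, their partner, had 244, 418, 212 and 230 CPM in WT and 205 to 259 CPM in the others, and its value turned from −0.24 to 0.04 without WT replicate 2. All 3 stalk genes had their highest level in WT replicate 2 and overlapped otherwise.

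Most members kept close proportions to each other over the 9 libraries, but not all did so in WT replicate 2. Relative to the median member, its log2 CPM differed from the mean of the other WT libraries by −0.78 in Rpl4, −0.68 in Rpl7l1 and 0.81 in Rpl24. The SD of a member's log2 CPM over the 9 libraries had a median of 0.29. Relative to the median member of the same library the SD had a median of 0.09, and it was under 0.2 in 74 of 81 members and under 0.1 in 47. The most separate members were Rpl3l (0.90), Rpl39l (0.44), Rps10 (0.31), Rpl24 (0.29) and Rpl4 (0.26). All of these but Rpl4 were also among the 5 lowest tested members per length. Counts of Rps10 and Rpl24 are limited by the shared exons named above. These SDs use the same libraries for all genes and share their scaling, so they describe the family and are not a test.

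Rpl3l was the 1 member with a higher level in the libraries labelled Il17ra-/-. The gene spans chr17:24727820-24736143 (plus strand). Its CPM was 19.9, 9.19, 12.5 and 6.80 in WT replicates 1 to 4 and 25.4, 20.9, 27.3, 26.4 and 20.03 in Il17ra-/- replicates 1 to 5. The groups touched without overlapping, with WT replicate 1 just below Il17ra-/- replicate 5. The log2 fold change was 0.99 (SE 0.25, adjusted p = 0.054), just short of the threshold. Over 19 alternatives the adjusted p ran from 0.004 to 0.134 and passed in 6, among them the one without WT replicate 1 (adjusted p = 0.004). Without WT replicate 2 the value was 0.88 (adjusted p = 0.089).

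Rpl3, the parent that most ribosomes carry, stood at 334, 461, 320 and 333 CPM in WT and 295, 340, 283, 387 and 305 CPM in the libraries labelled Il17ra-/- (log2 fold change −0.17, adjusted p = 0.578). The groups overlapped. Counts of Rpl3l were 5.97%, 2.00%, 3.90% and 2.05% of those of Rpl3 in WT and 8.62%, 6.15%, 9.63%, 6.84% and 6.57% in the other group. All 5 libraries labelled Il17ra-/- lay above all 4 WT libraries. The log2 ratio differed by 1.25 between the groups (two-sided exact permutation p = 0.0159, the smallest that 4 against 5 libraries can give). Adjusted over the 7 paralog pairs tested it was 0.111 (Benjamini-Hochberg) and did not pass the threshold.

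The summed muscle fibre markers, like Rpl3l, were higher in the libraries labelled Il17ra-/-. The summed level of the 12 fibre markers ran from 1273 to 3225 CPM in WT and from 3484 to 4666 CPM in the libraries labelled Il17ra-/-, and none of the 12 was at 0. Of these, 4 were called higher and 0 lower. Per 1000 CPM of fibre markers, Rpl3l stood at 6.18, 3.49, 5.26 and 5.34 CPM in WT and at 7.29, 5.24, 5.84, 5.91 and 5.04 CPM in the other group. On this scale the groups overlapped. The part of fibre RNA in the level of Rpl3l was not tested beyond this.

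**Figure D3:**
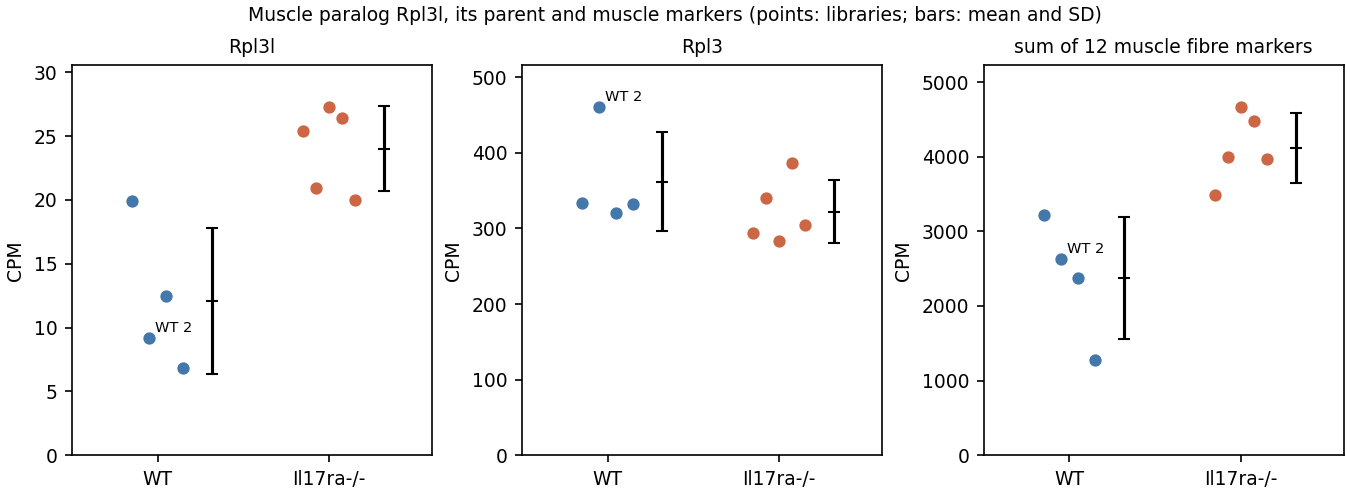
CPM of Rpl3l, of its parent Rpl3 and of the summed 12 muscle fibre markers in each library, by labelled genotype; bars give the mean and SD. Rpl3l and the fibre markers are higher in all 5 libraries labelled Il17ra-/- than in all 4 WT libraries, and Rpl3 overlaps.

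In the other 6 pairs of a paralog and its parent the ratio did not pass the test, with exact permutation p from 0.143 to 0.810 and adjusted values from 0.361 to 0.810. Rpl22l1, the paralog of Rpl22, stood at 31.5%, 40.4%, 36.2% and 27.7% of the counts of Rpl22 in WT and 22.6% to 33.6% in the libraries labelled Il17ra-/- (log2 difference −0.22). Rps27l, a p53-responsive paralog of Rps27, stood at 13.2%, 13.0%, 11.2% and 13.8% in WT and reached 16.2% in the other group (0.17). The ratio of Rpl39l to Rpl39 differed by −0.32 and that of Rpl7l1, a factor of large-subunit assembly, to Rpl7 by 0.03. Outside the symbol rule, the ratio of Rpl36al to Rpl36a differed by −0.21. That of Rps4l, annotated in GENCODE M21 as a transcribed processed pseudogene, to Rps4x differed by −0.23. All 6 had overlapping groups.

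The raised level of WT replicate 2 went with the length of the coding sequence. Over the 81 members the ratio of this library to the other WT libraries had a Spearman correlation of −0.51 with coding length (Pearson −0.45 on the log2 ratio). Over 12402 other tested genes the values were −0.51 and −0.43. These genes had a coding length, a mean of at least 1 CPM, and counts both in WT replicate 2 and among the other WT libraries. The length ranges below use the same genes. These correlations are across genes of the same libraries, which are not independent replicates. Members with a coding sequence under 300 nucleotides had a median ratio of 1.77 (10 genes), against 1.61 in the 217 other genes of that length. From 600 to 1300 nucleotides the ratio was 1.52 in 25 members and 1.14 in 4097 other genes. Above that length, where there is no member, the 6877 other genes stood at 0.837. Members were thus above other genes of their length in each range, by a description without a test.

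The 77 tested mitochondrial ribosomal protein genes, which build the ribosome of mitochondria, had a median ratio of 1.52 in WT replicate 2. Of these 0 were called, with a median log2 fold change of −0.08 over all libraries and 0.06 without WT replicate 2. The members' own fold changes followed coding length, with a Spearman correlation of 0.58 over all libraries and 0.33 without WT replicate 2. The part of coding length in the genotype comparison was not tested.

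Most members share sequence with processed pseudogenes. Of all stretches of 75 bases in a member's transcripts, a median of 30.9% also occurred in another gene, up to 89.2% in Rpl35, and 77 of the 82 members shared such stretches with a pseudogene. Rpl3l, Rpl39l and Rps3 were among those that shared none. Reads that map to several places are not counted, so the levels of members with many copies may be understated. The 24 tested members with over 50% shared stretches had a median log2 fold change of −0.26 and the other 57 one of −0.30. The 294 pseudogenes named after members held together 0.624% to 0.672% as many counts as the members in WT and 0.330% to 0.565% in the libraries labelled Il17ra-/-. The groups did not overlap in this share, and its part in the members' values was not tested. Exons of a gene on the opposite strand overlapped 19 members. The libraries do not mark strand, so reads that fall on both genes there were left out, and these levels may be understated. The 19 members had a median of −0.26.

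Ribosomal protein genes also house small nucleolar RNAs (snoRNAs), which guide modification of ribosomal RNA, in their introns. Among the members 29 held 56 annotated snoRNAs. Their median log2 fold change was −0.25, against −0.29 in the 52 tested members without one, and 0 were called in either set.

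Around the family, most other genes of translation and ribosome production were not called. The counts of each list below stand beside 1.35% of all tested genes called higher and 1.71% called lower, and 1 call in a list of this size is no result about the list. The 5 ribosomal protein genes that the symbol rule misses had a median of −0.24 and 0 called. Their median without WT replicate 2 was −0.16, and all 5 were negative with and without that library. The ratio of WT replicate 2 to the other WT libraries had a median of 1.09 in them. Among them Fau, which encodes a fusion of a ubiquitin-like protein and a small-subunit protein, stood at −0.34 (adjusted p = 0.352) and Rps3a1 at −0.24 (adjusted p = 0.442). Of 19 tested TOP mRNAs outside the ribosome, 18 had negative values (median −0.21, and −0.10 without WT replicate 2), and 2 fell. Both are noncoding snoRNA hosts: Gas5 fell by 0.62 on the log2 scale (adjusted p = 0.034) and Snhg1 by 0.94 (adjusted p = 0.016). The call of Gas5 was lost in 10 of 19 alternatives, over which the adjusted p ran from 0.002 to 0.102. These include leaving out any 1 library other than WT replicate 4 or Il17ra-/- replicate 4, for example WT replicate 2 (adjusted p = 0.052). The call of Snhg1 was lost in 2, without Il17ra-/- replicate 2 (adjusted p = 0.051) and without Il17ra-/- replicate 3 (adjusted p = 0.056).

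Translation factors gave 1 call in each direction. Of 10 elongation factors, Eef1a2, the elongation factor 1 alpha of muscle and neurons, rose by 0.99 (SE 0.23, adjusted p = 0.034). It stood at 62.4, 36.6, 47.0 and 21.2 CPM in WT and 76.4, 81.4, 96.1, 86.7 and 73.2 CPM in the libraries labelled Il17ra-/-. The groups did not overlap, as with the fibre markers and Rpl3l, and the call was lost in 8 of 19 alternatives, which include leaving out WT replicate 2 (adjusted p = 0.059), WT replicate 3 (0.064) or any 1 of the libraries labelled Il17ra-/- (up to 0.092, without replicate 3). Of 37 initiation factors 1 fell, Eif1, which governs start codon choice, by 0.78 (SE 0.15, adjusted p = 0.012). Its CPM was 627, 1005, 612 and 649 in WT and 354, 438, 394, 445 and 470 in the other group. It was called in all 19 alternatives.

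Of 23 tested regulators of TOP mRNAs and mTOR signalling, 3 fell. Myc, which drives transcription of ribosome genes, stood at 350, 507, 314 and 381 CPM in WT and 156, 212, 179, 221 and 238 CPM in the libraries labelled Il17ra-/-. It fell by 0.95 (SE 0.16, adjusted p = 0.004), with no overlap and with a call in all 19 alternatives. Ddit4, an inhibitor of mTORC1, fell by 0.94 (adjusted p = 0.034), a call lost in 6 of 19 alternatives, each leaving out 1 library: WT replicate 1, 3 or 4 or Il17ra-/- replicate 2, 4 or 5, with adjusted p up to 0.109 (WT replicate 3). Tial1, an RNA-binding protein, fell by 0.52 (adjusted p = 0.035), lost in 9 of 19 alternatives, among them without WT replicate 1 or 3 or any 1 library labelled Il17ra-/-, with adjusted p up to 0.109 (WT replicate 3). An activator and an inhibitor of ribosome production thus both fell in this list, whose median was −0.03.

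Of 60 tested biogenesis factors 3 fell and 0 rose, with a median of −0.09. Nop58, a core protein of box C/D snoRNA particles, went from 117, 108, 104 and 130 CPM in WT to 42.3, 36.8, 38.4, 65.6 and 50.8 CPM, and fell by 1.29 (SE 0.16, adjusted p = 5.49e-04). Its partner Nop56 fell by 0.79 (adjusted p = 0.028), lost in 7 of 19 alternatives, among them without WT replicate 1, 3 or 4 or Il17ra-/- replicate 1, 2 or 3, with adjusted p up to 0.083 (WT replicate 3). Sbds, which releases a factor from the new large subunit, fell by 0.61 (adjusted p = 0.014). Of 15 genes of RNA polymerase I, Taf1d fell by 1.07 (adjusted p = 0.009) and the median was 0.02. Exons of Taf1d and Nop56 overlap those of genes on the opposite strand, and reads that fall on both genes were left out of their counts.

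Of 20 tested genes of ribosome surveillance and p53 signalling, which respond to free ribosomal proteins, 2 fell. Cdkn1a, the cell cycle inhibitor p21, stood at 335, 435, 327 and 300 CPM in WT and 109, 96.3, 115, 116 and 116 CPM in the libraries labelled Il17ra-/-. It fell by 1.66 (SE 0.12, adjusted p = 2.16e-05). Zfas1, a noncoding snoRNA host with exons overlapping Znfx1 on the opposite strand, fell by 1.01 (adjusted p = 0.015, lost in 2 of 19, with 0.051 without Il17ra-/- replicate 3 and 0.063 at most). Cdkn1a was called in all 19 alternatives.

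**Figure D4:**
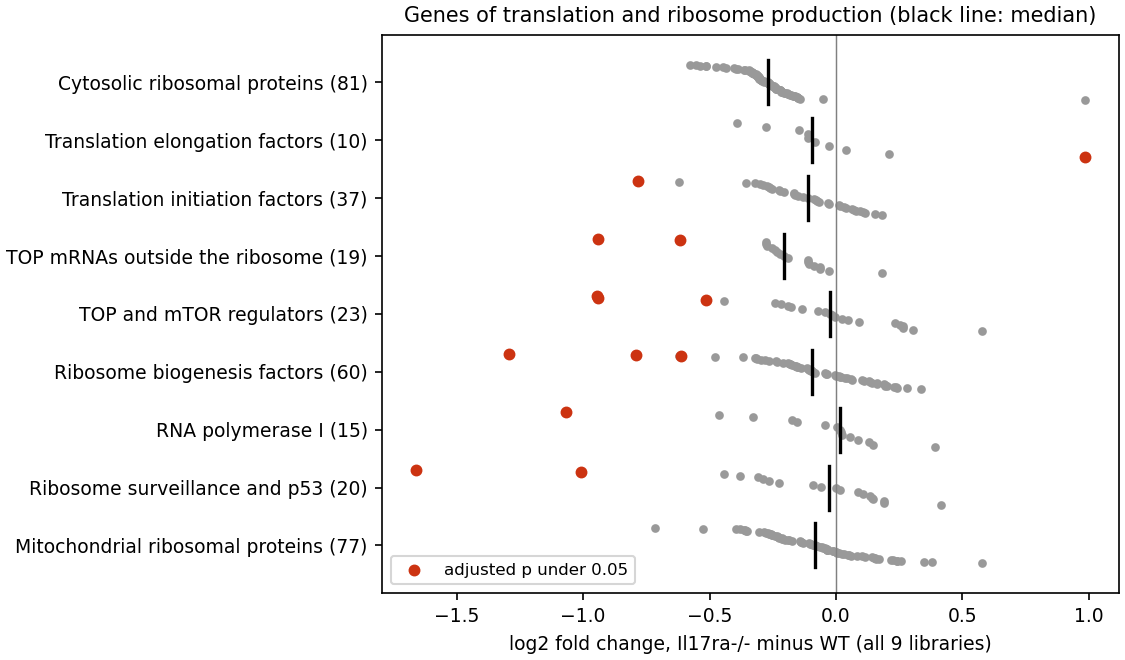
Log2 fold change (Il17ra-/- minus WT, all 9 libraries) of the tested genes of 9 lists of translation and ribosome production; black lines are medians and red points passed an adjusted p under 0.05. The ribosomal protein genes have the most negative median, at −0.27, and no red point. Without WT replicate 2 their median is −0.06 and no longer the most negative, with −0.10 in TOP mRNAs outside the ribosome.

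Cell type markers moved beside these values. Satellite cell markers summed to 61.1 to 92.7 CPM in WT and 124 to 169 CPM in the libraries labelled Il17ra-/-, with 2 of 6 called higher (Pax7 and Cdh15). Pericyte and smooth muscle markers summed to 998 to 1278 against 1676 to 2347 CPM, with 5 of 6 called higher. Leukocyte markers were low, at 20.4 to 38.5 against 8.19 to 19.8 CPM, with 6 of 11 under 0.5 CPM in every library and Cd68 called lower. Only 2 of the 6 tested leukocyte markers had negative values, and their median log2 fold change was 1.01 (0.75 without WT replicate 2), opposite to the sum and to Cd68. Fibroblast markers held the largest sums of the marker lists, at 75525 to 86788 against 70862 to 91797 CPM, with Pi16 of 8 called lower. Endothelial markers had overlapping sums, with 0 of 6 called. Adipocyte markers summed to 25.1 to 64.4 against 27.6 to 109 CPM, with Adipoq of 5 called higher. The calls of Pi16 and Adipoq were lost in 4 and 9 of 19 alternatives, most often without a single library, with adjusted p up to 0.072 (without Il17ra-/- replicate 3) and 0.138 (without Il17ra-/- replicate 2). No marker was at 0 throughout. The part of these differences in the levels of the ribosomal protein genes was not tested. Within the WT group, replicate 2 lay inside the range of the other 3 for fibre and satellite cell sums. It was the lowest of the 4 for fibroblast, leukocyte and endothelial sums and the highest for pericyte and adipocyte sums.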

How the data were processed

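RNA of 9 quadriceps samples was extracted with TRIzol and RNeasy columns and had an integrity number above 8.0, per the labels' protocols. TruSeq RNA v2 libraries, which do not mark strand, were sequenced on a NovaSeq at a stated depth of 30 M reads. The submitters' processing notes name STAR as the aligner, with no version. The authors counted read pairs per gene with featureCounts 1.6.0, per the file headers, and deposited these counts unnormalized. Counting was over GENCODE M21 exons, without options for strand, multiple mapping or overlapping genes.

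From these counts, genes passing filterByExpr were compared with edgeR 4.0.16 (R 4.3.3): TMM factors, quasi-likelihood test, two-sided, genotype label as the only term, Benjamini-Hochberg adjustment over all 16039 tested genes, calls at an adjusted p under 0.05. Every adjusted p comes from this test unless another is named. CPM values are TMM-scaled, and errors are SD unless named SE. Paralog ratios were log2 of counts plus 0.5, tested by exact permutation. Coordinates are 1-based on GRCm38, from GENCODE M21, to which all 55536 identifiers matched. The test was checked on simulated counts for the comparison of 4 against 5 libraries (15443 genes): it recovered 16.7% of genes changed 1.5-fold, 63.5% at 2-fold and 84.4% at 4-fold, with 5 false among 110 calls. Genes were drawn independently there, with no library that departs over many genes together as WT replicate 2 does. These rates may therefore not hold for the real libraries. As alternatives, the fit was repeated with other scalings, other filters, DESeq2 1.42.0, limma-voom (limma 3.58.1), a replicate block, and after leaving out each library.

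The members and the other lists were chosen with earlier results of these data known. Named genes are Il17ra and, at a mean of at least 1 CPM, the members with the largest positive and largest negative log2 fold change. Up to 8 were taken each way, and only 1 member was positive. The 5 highest and 5 lowest members per length, both genes of paralog pairs, the stalk genes, Rpsa and untested members are also named genes. Of these, those without a distinct pattern are given only in counts. In other lists they are called genes, up to 6, or else the 3 with the smallest p. Rps3 and Rpl35 were chosen for their shared sequence.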

Additional observations from a re-analysis of the deposited data

Results flagged for a closer look

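WT replicate 2 lay far above the other 3 WT libraries in 60 of the 81 tested members by Dixon's test, and no other library stood apart in any member. Chance alone marks about 1 in 20 independent groups. The members of a library move together, so these are not separate results. The same count over all tested genes is not given here. Among the named members, its CPM was 33.6 in Rpl24, 269 in Rps29, 129 in Rps28, 513 in Rps27, 271 in Rpl31 and 533 in Rpl41. It was 1058 in Rpl8, 1203 in Rplp0, 772 in Rps15, 1024 in Rplp1, 418 in Rplp2 and 841 in Rpsa. In Rpl22l1 it was 109, in Rpl3 461, in Rpl10 771, in Rpl39 166 and in Rpl36a 157. The share of counts held by the members in this library, 3.39%, stood apart in the same way. In the libraries labelled Il17ra-/-, the log2 ratio of Rps4l to Rps4x in replicate 4, at −5.33, lay below the other 4.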

How the results depend on the processing

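No member was called lower in the main comparison or in any of the 19 alternatives. The number called higher went from 0 to 1, the gene being Rpl3l, with library totals only, with no filter on low counts, with DESeq2 and with limma-voom, and from 0 to 1 over the fits that leave out 1 library (1 without WT replicate 1). All genes called numbered 491, but 1026 with DESeq2 and 275 to 567 when 1 library was left out, the lowest without Il17ra-/- replicate 3 and the next, 323, without Il17ra-/- replicate 1. The members' median of −0.27 was −0.20 with library totals only and ran from −0.34 to −0.06 when 1 library was left out, with the value nearest 0 without WT replicate 2. Directions turned, mostly without WT replicate 2. Over the fits that leave out 1 library, or WT replicate 2 and Il17ra-/- replicate 1 together, the log2 fold change ran from −0.72 to 0.065 in Rpl24, −0.34 to 0.078 in Rplp2, −0.33 to 0.011 in Rpsa and −0.24 to 0.00011 in Rpl3. The ratio of Rpl7l1 to Rpl7 ran from −0.089 to 0.091. With library totals only, Rpl4 turned to 0.013. The cause was not tested. Of 513 values for the 27 named member genes, 500 kept their direction and side of the threshold. Replicate numbers are shared between the groups, and no label says that they pair libraries. Deviations of same-numbered libraries from their group means had correlations of −0.017, 0.005, 0.056 and 0.036 over all tested genes. Such values cannot exclude a pairing. With the replicate number as a block, 363 genes and 1 member (Rpl3l, higher) were called. At this depth all members but Rpl10l were far above the limit of 3 counts, so the spread between libraries and not the counting sets the precision.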

Other observations

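Genes that house snoRNAs were looked at after the falls of Gas5, Snhg1, Zfas1, Nop56, Nop58 and Taf1d had been seen, so the values below describe a pattern and do not test it. Outside the ribosomal protein family, 226 tested genes hold an annotated snoRNA. Of these, 12 fell and 0 rose in the libraries labelled Il17ra-/-, a share of 5.31% lower against 1.71% of all tested genes. Among the 57 with at least 2 snoRNAs, 10 fell. Without WT replicate 2 the numbers were 11 and 9. The median log2 fold change of the 226 genes was 0.02, beside −0.003 over all tested genes. Of the 29 tested ribosomal protein genes with a snoRNA, 0 were called.

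Beside the genes named above, the 12 include Hspa8, a constitutive chaperone, which fell from 1263 ± 63.1 CPM (n = 4) to 711 ± 111 CPM (n = 5; log2 fold change −0.83, edgeR adjusted p = 0.002). Snhg5, Snhg12 and 1110038B12Rik are noncoding host genes and fell by 0.81, 0.92 and 1.31 on the log2 scale. Odc1, the first enzyme of polyamine synthesis, fell by 0.77, and Khdc4 by 0.50. All 12 had groups that did not overlap, which follows largely from choosing genes called in these same libraries. Over all tested genes, called or not, 4.56% had such groups in this direction. Counts cover all annotated exons of a host, which in GENCODE M21 overlap same-strand snoRNAs in Gas5, Snhg1, Taf1d, Nop56, Nop58 and Zfas1. Reads that fall on both a host and a snoRNA were left out. The levels of the snoRNAs are not analysed here.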
